A study of Mus musculus with 96 samples.

Results

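The rectum of *Scx*-/- mice was compared with that of wild-type mice in 3 libraries of each genotype, which make up 6 of the 96 libraries of the series. The mice were 3 weeks old, whole organs were frozen at necropsy, and the genotypes are the difference that the labels give between the groups. No source used here gives the alleles behind the *Scx*-/- genotype, the sex of the mice or the mouse behind each library, so *p*-values measure the spread between these libraries, which may be technical. RNA was measured by MuSeq, in which each sample is barcoded during reverse transcription and reads come mainly from the 3′ ends of transcripts. The comparison covers the 14292 genes with a count in at least 1 of the 6 libraries, out of 41575 gene symbols in the deposited table.

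*Scx* encodes scleraxis, a transcription factor of tendon and ligament progenitors, and mice without it have severe tendon defects. The rectum is lined by a simple columnar mucosa of absorptive colonocytes and goblet cells over layers of smooth muscle, and at the anal canal this lining gives way to stratified squamous epithelium that is continuous with the perianal skin, inside a ring of skeletal sphincter muscle. A stratified epithelium renews from a basal layer that makes the keratins Krt5 and Krt14. Its cells switch to Krt1 and Krt10 as they move up in skin, or to Krt4 and Krt13 in moist linings, and the cells of skin end as a cornified envelope of loricrin, small proline-rich proteins and filaggrin.

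Depth was low and uneven. The wild-type libraries held 217467, 83150 and 49764 counts (replicates 1 to 3) and the *Scx*-/- libraries 78710, 230777 and 314033, with 5309 to 10881 genes detected. *Scx* itself had 0 counts in all 6 libraries. A count of 0 allows up to 8.56 CPM (counts after scaling a library to 1000000) over the wild-type group and up to 4.81 CPM over the *Scx*-/- group, so its transcript was not detectable at this depth and the genotype labels could not be checked with it. Intervals and such floors cover counting error only. The list of colonocyte genes took 3.14% to 3.71% of counts in wild type and 1.81% and 2.57% in *Scx*-/- replicates 2 and 3, and *Hoxb13*, a homeobox gene of the hindgut end, was detected in all 6 libraries. In 5 of the libraries the markers of rectal mucosa and muscle were thus present as the tissue label says.

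The library labelled *Scx*-/- replicate 1 stood apart. Colonocyte genes took 0.332% of its counts, with 17 of 38 measured members detected against 32 to 36 in the others, and smooth muscle genes took 0.553% against 3.02% to 4.05%. Its *Hoxb13* level was 12.7 CPM against 308 to 1200.2 CPM in the others, and it held no count of *Cdx1*, the intestinal homeobox gene, or of the goblet cell gene *Zg16*. Across the series its profile was closest to that of a wild-type bladder library (Pearson r = 0.688 across genes), by a small margin over the nearest rectum library (r = 0.68), whereas each of the other 5 was closest to a rectum library. Mean correlations do not set it apart, since 5 of the 6 libraries had a higher mean r with bladder than with the other rectum libraries. It was kept in the fit as labelled, and counts that rest on it are given with and without it. *Xist*, the RNA of the inactive X chromosome, was at 970.3, 0 and 161 CPM in wild-type replicates 1, 2 and 3 and at 1486, 4.33 and 0 CPM in *Scx*-/- replicates 1, 2 and 3. The Y-linked gene *Ddx3y* was at 12 CPM in wild-type replicate 2, at 342 and 108 CPM in *Scx*-/- replicates 2 and 3, and at 0 in the others. *Xist* did not pass the test with all libraries (adjusted *p* = 0.997) and was lower in *Scx*-/- without replicate 1 (adjusted *p* = 9.44e-06). Each group thus held libraries with *Xist* counts and libraries with *Ddx3y* counts, and the part of these in the results was not tested.

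**Figure D1:**
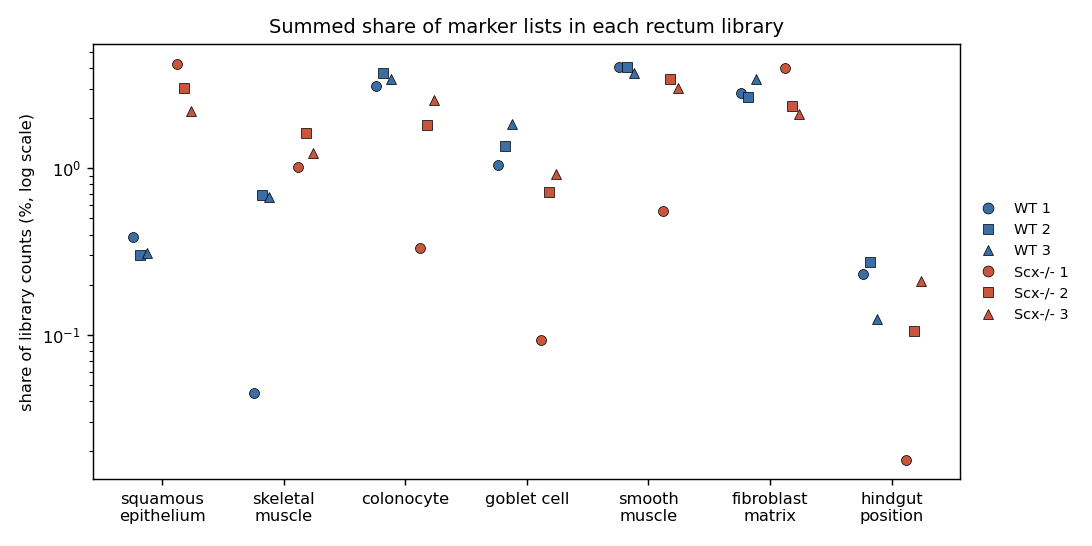
Share of each rectum library's counts taken by 7 marker lists, on a log axis; blue symbols are the 3 wild-type libraries and red symbols the 3 *Scx*-/- libraries, with the shape giving the replicate number. The squamous list lay at 0.302% to 0.388% in wild type and 2.22% to 4.24% in *Scx*-/-, and *Scx*-/- replicate 1 (red circles) was lowest for colonocyte, goblet cell, smooth muscle and hindgut position genes.

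By edgeR's quasi-likelihood test, 63 genes differed between the genotypes at an adjusted *p* under 0.05, which is 0.441% of those tested. Of these, 57 were higher (0.399%) and 6 lower (0.042%) in *Scx*-/- rectum. The higher genes included 23 of the squamous epithelium list, 4 of the skeletal muscle list and the metallothioneins *Mt1* and *Mt2*, and 27 of the 63 called genes were in no list. The lower genes were *Phgr1*, *Prdx6*, *Clca1*, *Car4*, *Insl5* and *Hbb-bs*. Of the 57, 50 did not overlap between the groups, as was true of 5.88% of all genes in that direction, and of the 6, 5 did not (2.23%). Without adjustment, 517 genes were higher (3.62%) and 203 lower (1.42%) at a *p* under 0.05. At the thresholds of the study, an unadjusted *p* under 0.05 and more than a 2-fold change, 714 genes passed (5%), of which 513 were higher (3.59%) and 201 lower (1.41%). Without *Scx*-/- replicate 1, 62 genes were called (55 higher, 0.394%, and 7 lower, 0.0502%), and 51 of them were among the 63. Of the 57 higher genes, 40 had no count in any wild-type library and 8 had 1 to 3, so their fitted fold changes are not estimates of size. For a gene with no wild-type count the change is given as a lower bound, against a floor of 3 counts over the wild-type group, and for one with 1 to 3 counts as a ratio of pooled CPM with its 95% counting interval. Wild-type replicate 1 holds 217467 of the 350381 counts of its group, so the bounds rest mainly on it and would be smaller without it.

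**Figure D2:**
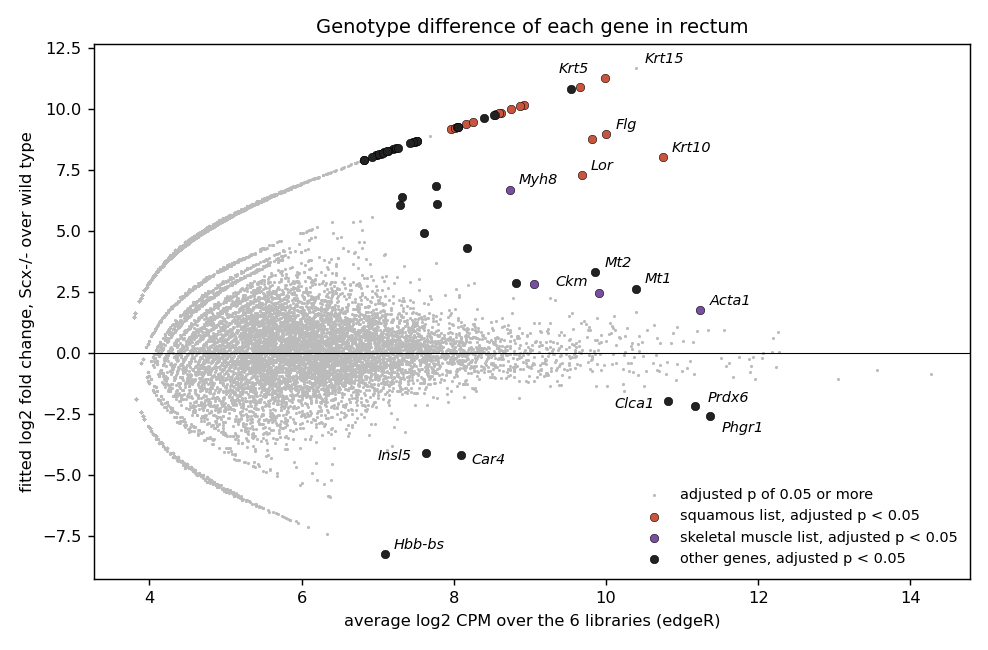
Fitted log2 fold change (*Scx*-/- over wild type) of the 14292 genes against their average log2 CPM; grey dots are genes with an adjusted *p* of 0.05 or more, and coloured dots are the 63 called genes. The called genes lie mostly along the upper edge, where wild-type libraries held no count, and 6 lie below 0.

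Of the 54 measured genes of the squamous epithelium list, 23 rose in *Scx*-/- rectum and none fell, against 0.399% and 0.042% of all genes tested. The other 31 did not pass the test. Leaving out *Scx*-/- replicate 1 gave the same count of 23, and leaving out any other library 20 to 23. In wild-type libraries 36 of the 54 genes had no count, and 13 to 16 were detected per library, against 44 to 53 in the *Scx*-/- libraries. The median fitted log2 fold change of the list was 7.16, or 4.21 with genes absent from a group set to their bound, against 0.45 and 0.23 over all genes. Without wild-type replicate 1 the fitted medians were 7.50 and 1.41. In tissue RNA, more cells of a type and more RNA per cell cannot be told apart. Some members of the list were present in wild-type rectum. *Dsp*, the desmosome protein that anchors keratin filaments, was at 749.5, 265 and 522 CPM in wild type and 2058, 1231 and 723 CPM in *Scx*-/- (adjusted *p* = 0.706). *Perp*, another desmosome protein, was at 989, 541 and 322 CPM against 2833, 1686 and 1439 CPM (adjusted *p* = 0.185). For neither of them did the test pass.

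The basal keratins were absent from wild-type rectum and present in every *Scx*-/- library. *Krt5* was at 0 CPM in the 3 wild-type libraries and at 4980.3, 854 and 455 CPM in *Scx*-/- replicates 1, 2 and 3, at least 137-fold higher (adjusted *p* = 3.48e-24), and without replicate 1 that bound was 72.9-fold. Its filament partner *Krt14* was at 0 CPM against 3227, 1183 and 414 CPM, at least 123-fold higher (adjusted *p* = 1.55e-20). For both, *Scx*-/- replicate 1 was the highest library, and neither group overlapped the other. Both calls held in each of the 6 fits that left out 1 library. *Krt15*, a keratin of basal cells with slow turnover, was at 0 CPM in wild type and at 8068, 269 and 280.2 CPM in *Scx*-/-, but did not pass the test (adjusted *p* = 0.706). Its level in replicate 1 was far above the other two. The test passed without any one of the *Scx*-/- replicates 1, 2 and 3 (adjusted *p* = 0.00206, 1.08e-23 and 7.13e-24) and failed without any one wild-type replicate (0.0926 to 0.831). *Trp63*, the transcription factor that specifies stratified epithelia, was at 0 CPM in wild type and 152, 78 and 86 CPM in *Scx*-/- (adjusted *p* = 0.616), and *Col17a1*, a hemidesmosome collagen, at 0 CPM against 432, 152 and 12.7 CPM (adjusted *p* = 0.0618). In the plot of stratified epithelium genes by library these 5 genes stand at the top. The grouping into layers used here was written after the values were seen, so counts within a layer carry no weight of their own.

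The keratins of cells that have left the basal layer changed in the same direction. *Krt10* was at 23, 0 and 0 CPM in wild type and at 3748, 3639.9 and 2350.1 CPM in *Scx*-/-, a ratio of 211 (interval 90 to 649; adjusted *p* = 2.44e-27). Its 3 *Scx*-/- libraries lay close to each other, and without the library that stood apart its adjusted *p* was 5.59e-46. *Krt1*, its filament partner in skin, was at 0 CPM against 419, 139 and 153 CPM, at least 21.2-fold higher (adjusted *p* = 0.0107), a call that was lost without *Scx*-/- replicate 1 (adjusted *p* = 0.287) and in 4 of the other 5 fits without 1 library. *Krt77*, an epidermal keratin, was at 4.6, 0 and 0 CPM against 152, 481 and 159 CPM (adjusted *p* = 0.00736, and 0.859 without *Scx*-/- replicate 2 or 0.0664 without wild-type replicate 2). *Krtdap*, a secreted protein of differentiating keratinocytes, was at 0, 0 and 20.1 CPM against 1321, 2175 and 1449 CPM, a ratio of 596 with an interval of 107 to 23571 that reflects a single wild-type count (adjusted *p* = 1.64e-19). *Dmkn*, which encodes dermokine, was at 0 CPM against 470.1, 1144 and 965 CPM, at least 113-fold higher (adjusted *p* = 1.71e-13). *Sbsn*, which encodes suprabasin, was at 0 CPM against 381, 819 and 417 CPM, at least 65.6-fold higher (adjusted *p* = 1.53e-08). *Lgals7*, the galectin of stratified epithelia, and *Ly6d*, a surface protein that is also carried by lymphocyte precursors, rose at least 49.6-fold (adjusted *p* = 6.24e-08) and at least 72.7-fold (adjusted *p* = 3.94e-13). *Calml3* rose at least 30.7-fold (adjusted *p* = 0.00025, and 0.0974 without *Scx*-/- replicate 2).

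**Figure D3:**
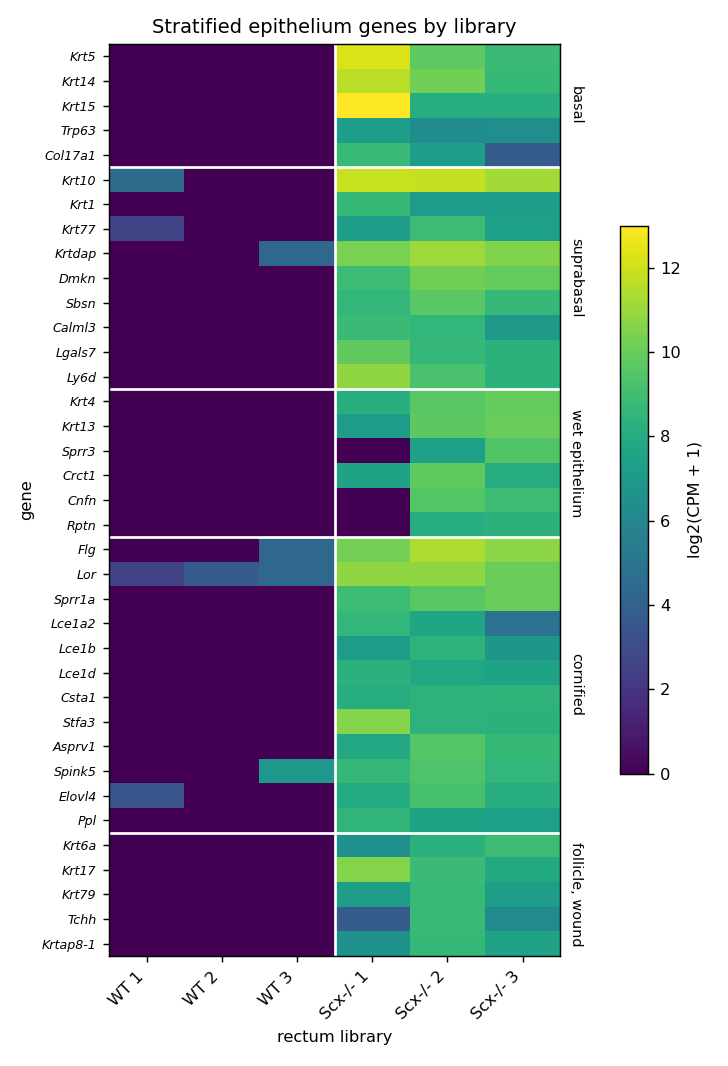
Heat map of log2(CPM + 1) for 37 stratified epithelium genes (rows, grouped by layer) in the 6 rectum libraries (columns). The wild-type columns are dark except for a few genes with 1 to 6 counts, and the *Scx*-/- columns are bright for nearly every gene, with *Sprr3*, *Cnfn* and *Rptn* dark in replicate 1.

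Keratins and envelope genes of moist stratified linings, such as those of mouth, oesophagus and anal canal, were higher as well, and here the replicate that stood apart was the lowest of the 3. *Krt13* was at 0 CPM in wild type and at 139.8, 845 and 1041 CPM in *Scx*-/-, at least 99.8-fold higher (adjusted *p* = 5.43e-11). *Krt4*, its partner, was at 0 CPM against 292, 776 and 952 CPM, at least 93.8-fold higher (adjusted *p* = 8.06e-11). Both calls held in every fit that left out 1 library. *Sprr3*, a small proline-rich protein of the oesophagus, was at 0 CPM in wild type and 0, 173 and 707 CPM in *Scx*-/- (adjusted *p* = 0.000208, and 0.812 without *Scx*-/- replicate 3). *Cnfn*, a cornified envelope protein, was at 0 CPM against 0, 741 and 499.9 CPM (adjusted *p* = 7.46e-07), and *Rptn*, a filaggrin relative, at 0 CPM against 0, 273 and 318 CPM (adjusted *p* = 0.0149). *Rptn* was called in 2 of the 6 fits without 1 library, with a highest adjusted *p* of 0.812 without *Scx*-/- replicate 3. DESeq2 did not call *Sprr3*, *Cnfn* or *Rptn* (adjusted *p* = 0.72, 0.66 and 0.817). For these 3 genes *Scx*-/- replicate 1 was at 0 like the wild-type libraries, so the groups overlapped. *Crct1* rose at least 56.8-fold (adjusted *p* = 3.51e-07, and 0.248 without *Scx*-/- replicate 2).

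Further genes of the cornified envelope and its assembly rose, and those grouped here had counts in each of the 3 *Scx*-/- libraries. *Flg*, whose product filaggrin bundles keratin filaments in the outer epidermis, was at 0, 0 and 20.1 CPM in wild type and at 1219.7, 2687 and 1697 CPM in *Scx*-/-, a ratio of 702 whose interval of 126 to 27744 again rests on 1 wild-type count (adjusted *p* = 2.15e-21). *Lor*, which encodes loricrin, the main envelope protein of skin, was at 4.6, 12 and 20.1 CPM against 1791, 1781 and 1025 CPM, a ratio of 164 (interval 55.8 to 795; adjusted *p* = 8.11e-16). *Sprr1a*, a small proline-rich envelope precursor, was at 0 CPM against 495, 784 and 1016 CPM, at least 101-fold higher (adjusted *p* = 4.82e-12). None of the 3 genes overlapped between the groups, and all 3 calls held in every fit that left out 1 library. The protease inhibitors *Csta1* and *Stfa3* rose at least 38.6-fold (adjusted *p* = 0.000198) and at least 56.4-fold (adjusted *p* = 1.86e-10), and *Asprv1*, the protease that processes filaggrin, at least 59.4-fold (adjusted *p* = 2.53e-07). *BC100530* had the largest bound, at 0 CPM against 1689.8, 1209 and 1309 CPM and at least 154-fold higher (adjusted *p* = 1.64e-19). *Elovl4*, which makes the very long fatty acids of the skin barrier, was at 9.2, 0 and 0 CPM against 254, 581 and 293 CPM (adjusted *p* = 0.000296, and 0.402 without *Scx*-/- replicate 2). *Spink5*, the inhibitor of epidermal kallikreins, was at 0, 0 and 121 CPM against 394, 680.3 and 379 CPM (log2 fold change 4.28 ± 0.97 SE, adjusted *p* = 0.00343), and its call was lost without wild-type replicate 1 (0.181), wild-type replicate 2 (0.133) or *Scx*-/- replicate 2 (0.717). The late envelope genes *Lce1a2*, *Lce1b* and *Lce1d* and the plakin *Ppl* had adjusted *p* values of 0.047, 0.0243, 0.00804 and 0.00873 and were called in 0, 2, 1 and 1 of the 6 fits without 1 library, with a highest adjusted *p* of 0.859, 0.859, 0.204 and 0.149. *Lce1*, *Sprr* and stefin genes are families of near-identical copies, so the split of reads among their members is uncertain. Of the called genes in no list, *Calm4*, *Dapl1*, *Fam25c*, *Cst6*, *Psapl1* and *Serpinb3a* also had no wild-type count, with bounds of 25.5-fold (*Cst6*) to 70.6-fold (*Calm4*), and *Tmem45a* was at 13.8, 0 and 20.1 CPM against 139.8, 646 and 169 CPM (4.90 ± 1.20, adjusted *p* = 0.0121). *Calm4*, *Dapl1* and *Fam25c* were called in all 6 fits without 1 library, and *Cst6*, *Psapl1*, *Serpinb3a* and *Tmem45a* were lost without *Scx*-/- replicate 2 (0.859, 0.859, 0.483 and 0.859) or, but for *Psapl1*, without some other library as well.

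Some of the higher genes lie in 3 known gene clusters of stratified epithelium, while others such as *Csta1*, *Stfa3*, *Asprv1* and *Ppl* do not. In the interval of the epidermal differentiation complex, chr3:92080271-93449077 of GRCm38, 43 genes were tested and 10 rose, namely *Crct1*, *Flg*, *Lce1a2*, *Lce1b*, *Lce1d*, *Lor*, *Rptn*, *Sprr1a*, *Sprr3* and *Tchh*. In the cluster of basic keratins, chr15:101689928-101940324, 6 of 8 tested genes rose, namely *Krt1*, *Krt4*, *Krt5*, *Krt6a*, *Krt77* and *Krt79*. In the cluster of acidic keratins, chr11:99385254-100261029, 4 of 34 rose, namely *Krt10*, *Krt13*, *Krt14* and *Krt17*. None of the tested genes in the 3 intervals was called lower, against 0.399% higher and 0.042% lower over all genes. Each interval was drawn after the calls were seen, from the first to the last called gene of its cluster. Members of the cluster outside it are left out, which raises the shares. A gene with counts only in *Scx*-/- libraries, such as *Krt5*, could not have been called lower. These counts thus carry no weight of their own.

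The promoters of *Flg*, *Lor*, *Sprr1a* and *Krtdap* are shown because these genes moved together. Each line gives the 250 bases before the RefSeq start in build GRCm38.p6, read 5′ to 3′ on the gene's strand, with capitals marking matches to TGANTCA, the core of the site bound by AP-1 factors, which are known regulators of keratinocyte differentiation.
*Flg*, chr3:93273296-93273545, plus strand: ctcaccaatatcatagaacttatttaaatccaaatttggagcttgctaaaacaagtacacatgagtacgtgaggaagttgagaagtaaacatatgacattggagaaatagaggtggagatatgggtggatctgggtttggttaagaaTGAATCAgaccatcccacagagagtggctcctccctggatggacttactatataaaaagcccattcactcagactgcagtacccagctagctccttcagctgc
*Lor*, chr3:92083143-92083392, minus strand: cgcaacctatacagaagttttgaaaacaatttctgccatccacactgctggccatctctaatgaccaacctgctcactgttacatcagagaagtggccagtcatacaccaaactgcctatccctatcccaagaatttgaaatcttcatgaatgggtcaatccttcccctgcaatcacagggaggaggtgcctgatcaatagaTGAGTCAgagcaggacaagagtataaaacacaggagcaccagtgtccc
*Sprr1a*, chr3:92485882-92486131, minus strand: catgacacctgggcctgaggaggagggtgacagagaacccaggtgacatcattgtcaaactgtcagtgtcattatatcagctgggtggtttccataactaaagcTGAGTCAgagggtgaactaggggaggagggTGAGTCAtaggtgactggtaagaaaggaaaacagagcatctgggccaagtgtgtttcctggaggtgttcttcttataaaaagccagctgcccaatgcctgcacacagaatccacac
*Krtdap*, chr7:30787655-30787904, plus strand: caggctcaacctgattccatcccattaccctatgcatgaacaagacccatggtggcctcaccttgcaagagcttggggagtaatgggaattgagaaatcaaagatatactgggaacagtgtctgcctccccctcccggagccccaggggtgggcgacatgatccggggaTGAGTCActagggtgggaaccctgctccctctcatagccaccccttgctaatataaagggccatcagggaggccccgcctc
Of the 23 squamous list genes that rose, 16 had a promoter in the RefSeq table, and 8 of the 16 (50%) held TGANTCA on either strand. The printed promoters are among the 8 with a match. The share was 25.6% (11 of 43) over all called higher genes with a promoter, 6.87% over all 27025 promoters of the table and 4.92% over those of genes tested in rectum. The letters TATAAA were in 7 of the 16 (43.8%) against 13% of all promoters. Neither motif contains the other, and a match describes the sequence only. *Krt5*, *Krt10* and *Krt14* held no TGANTCA in this window.

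Keratins of hair follicle, gland duct and wounded skin were among the higher genes. *Krt17* was at 0 CPM in wild type and at 1525, 459 and 232 CPM in *Scx*-/-, at least 56-fold higher (adjusted *p* = 1.58e-10). *Krt6a*, its partner, was at 0 CPM against 88.9, 321 and 474 CPM (adjusted *p* = 0.00025, and 0.267 without *Scx*-/- replicate 3). *Krt79*, a keratin of the follicle opening, was at 0 CPM against 152, 451 and 149.7 CPM (adjusted *p* = 0.00235, and 0.859 without *Scx*-/- replicate 2 or 0.0575 without wild-type replicate 1). *Tchh*, which encodes the inner root sheath protein trichohyalin, was at 0 CPM against 12.7, 433 and 73.2 CPM (adjusted *p* = 0.0482), and *Krtap8-1*, a hair shaft protein, at 0 CPM against 102, 412 and 175 CPM (adjusted *p* = 0.00534). These last calls were held in 2 and 3 of the 6 fits without 1 library, and the adjusted *p* of each was 0.859 without *Scx*-/- replicate 2. *Mt4*, the metallothionein of stratified epithelia, was at 0 CPM against 330.3, 251 and 98.7 CPM (adjusted *p* = 0.0123), a call held in 1 of those 6 fits (highest adjusted *p* = 0.608, without *Scx*-/- replicate 2).

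Among the tissues of the series, wild-type rectum lay below stomach and bladder in squamous RNA, and *Scx*-/- rectum lay above them. The list took 2.22% to 4.24% of counts in *Scx*-/- rectum. In stomach, which in mice has a squamous forestomach, it took 1.61% to 1.94% in wild type and 1.74% to 1.96% in *Scx*-/-, and in bladder 1.06% to 1.12% and 1.27% to 1.69%. In intestine, the other gut segment, it took 0.127% to 0.234% and 0.0466% to 0.249%. Whether the effect in rectum differed from the mean effect in bladder, intestine and stomach was tested for 9844 genes, and 13 passed (0.132%), all with a higher fitted effect in rectum. *Krt5* had 0 CPM in wild-type and 455 to 4980.3 CPM in *Scx*-/- rectum, against 328 to 459.6 and 409 to 536 CPM in bladder and 71.8 to 104 and 130 to 193 CPM in stomach (adjusted *p* of the difference = 6.77e-05). *Ly6d* had 0 CPM and 322 to 1842 CPM in rectum, against 1572 to 1747 and 2523 to 3839 CPM in bladder (adjusted *p* of the difference = 1.6e-15). *Krtdap* had 0 to 20.1 and 1321 to 2175 CPM in rectum, against 704 to 709 and 792 to 1262 CPM in stomach (adjusted *p* of the difference = 6.77e-05). Of the 13 genes, 6 were in the squamous list and 6 were called in rectum itself.

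**Figure D4:**
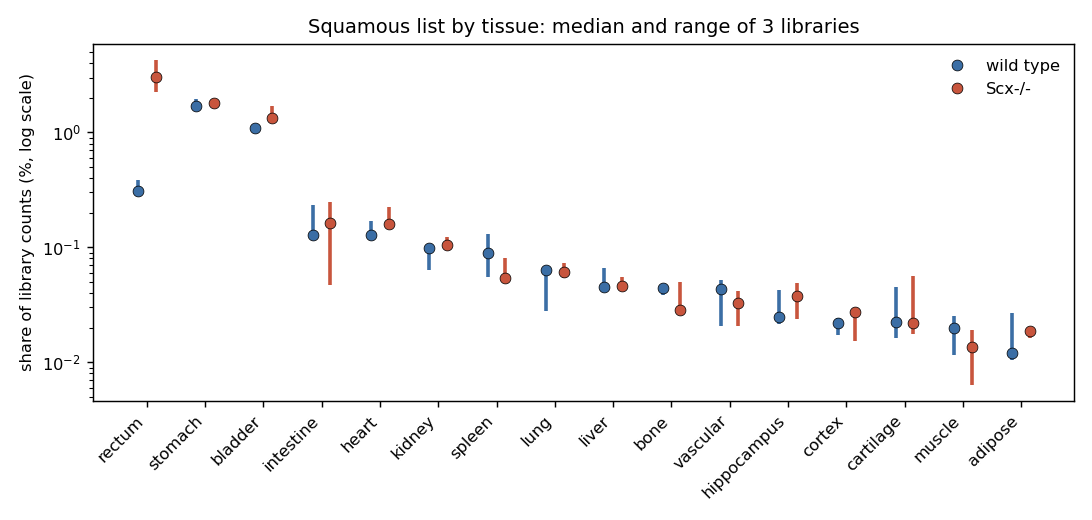
Share of counts taken by the squamous list in each tissue (log axis), for wild type (blue) and *Scx*-/- (red); points are medians and lines the range of 3 libraries. Rectum is the tissue in which the ranges of the genotypes are farthest apart, 0.302% to 0.388% against 2.22% to 4.24%.

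Of 24 measured skeletal muscle genes, 4 rose and none fell, against 0.399% and 0.042% of all genes. These are *Myh8*, *Ckm*, *Tnnt3* and *Acta1*, and the muscle genes *Sln* and *Myl3*, also called, are not in the list. No listed gene was called with filterByExpr, which left out *Myh8*, and 1 was with libraries thinned to 49764 counts and 2 by DESeq2. Without *Scx*-/- replicate 1, 5 rose, and without wild-type replicate 1, *Scx*-/- replicate 2 or *Scx*-/- replicate 3, 1 rose. The median fitted log2 fold change of the list was 2.04 against 0.45 over all genes, but 1.57 against 1.41 without wild-type replicate 1, so the list stood little above all genes without that library. The list took 0.0446%, 0.687% and 0.675% of counts in wild type and 1.01%, 1.64% and 1.24% in *Scx*-/-, so wild-type replicate 1 stood far below the other two while the genotypes did not overlap. *Myh8*, the perinatal myosin heavy chain, was at 0, 0 and 40.2 CPM in wild type and at 38.1, 1161 and 965 CPM in *Scx*-/-, a ratio of 161 (interval 44.4 to 1335; adjusted *p* = 1.22e-08), and its call held in every fit without 1 library. *Sln*, which encodes sarcolipin, a regulator of the muscle calcium pump, was at 0 CPM against 12.7, 646 and 672 CPM, at least 67.6-fold higher (adjusted *p* = 2.51e-07), and this call too held in every such fit. For both genes *Scx*-/- replicate 1 was near the wild-type level.

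Calls of other muscle genes were lost without single libraries. *Ckm*, the creatine kinase of muscle, was at 64.4, 421 and 522 CPM in wild type and 1182, 1599 and 1672 CPM in *Scx*-/- (log2 fold change 2.44 ± 0.58 SE, adjusted *p* = 0.0075). Its call was lost without wild-type replicate 1 (0.35), wild-type replicate 2 (0.0531), *Scx*-/- replicate 2 (0.305) or *Scx*-/- replicate 3 (0.267). *Tnnt3*, the fast troponin T, was at 4.6, 241 and 201 CPM against 711, 858 and 974 CPM (2.83 ± 0.69, adjusted *p* = 0.0121), a call lost without wild-type replicate 1 (0.486), *Scx*-/- replicate 2 (0.318) or *Scx*-/- replicate 3 (0.408). *Acta1*, the skeletal actin, was at 129, 1719.8 and 1929 CPM against 2668, 4485 and 3188 CPM (1.74 ± 0.46, adjusted *p* = 0.0335), and its call was lost in 5 of the 6 fits without 1 library, with adjusted *p* of 0.0823 to 0.877, and also with RLE factors (0.0775) and library totals (0.118). *Myl3* was at 0, 0 and 20.1 CPM against 152, 359.7 and 258 CPM (adjusted *p* = 0.0165) and was called in 2 of those 6 fits. The fast fibre genes *Tnnc2* (2.18 ± 0.64, adjusted *p* = 0.133), *Tnni2* (2.26 ± 0.64, adjusted *p* = 0.0909) and *Mylpf* (1.32 ± 0.58, adjusted *p* = 0.706) did not pass. DESeq2 did not call *Acta1*, *Ckm* or *Tnnt3* (adjusted *p* = 0.687, 0.136 and 0.197).

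The metallothioneins, small proteins that bind zinc and copper and whose genes respond to metals, glucocorticoids and stress, were higher in *Scx*-/- rectum. *Mt1* was at 409, 421 and 301 CPM in wild type and at 559, 2032 and 3605 CPM in *Scx*-/- (log2 fold change 2.63 ± 0.53 SE, adjusted *p* = 0.000339). *Mt2* was at 198, 216 and 80.4 CPM against 889, 1192 and 2506 CPM (3.31 ± 0.60, adjusted *p* = 2.36e-05). The groups did not overlap for either gene, and *Scx*-/- replicate 3 was the highest library for both. Without it neither was called (adjusted *p* = 0.748 and 0.156). DESeq2 called *Mt2* (adjusted *p* = 0.00148) and not *Mt1* (0.0535). Of the 13 measured genes of the list of metallothionein and steroid-responsive genes, 3 rose, against 0.399% of all genes, and 1 rose without *Scx*-/- replicate 3. The third gene was *Lcn2*, which had counts only in *Scx*-/- replicate 1 (adjusted *p* = 0.00343). Its call was lost with RLE factors (0.268), library totals (0.197), the replicate block (0.406) and without wild-type replicates 1, 2 and 3 (0.764, 0.297 and 0.831). *H19*, an imprinted RNA of growing tissue, was at 4.6, 12 and 402 CPM against 381, 1005 and 704 CPM (2.85 ± 0.74, adjusted *p* = 0.0304), with overlap between the groups and a call that held in 2 of the 6 fits without 1 library. The *H19* call was also lost with RLE factors (0.0731), library totals (0.125), filterByExpr (0.858), libraries thinned (0.0692) and DESeq2 (0.435).

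The metallothionein promoters are shown because their metal response elements are the best known feature of these genes. The 250 bases before each start are given as above (RefSeq, GRCm38.p6), with capitals marking TGCACNC or TGCGCNC, the core of a metal response element, on either strand.
*Mt1*, chr8:94178839-94179088, plus strand: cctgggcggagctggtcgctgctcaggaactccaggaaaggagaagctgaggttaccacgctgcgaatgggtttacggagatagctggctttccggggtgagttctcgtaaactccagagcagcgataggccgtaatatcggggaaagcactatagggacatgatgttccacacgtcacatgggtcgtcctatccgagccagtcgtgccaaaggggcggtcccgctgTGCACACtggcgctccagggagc
*Mt2*, chr8:94172368-94172617, plus strand: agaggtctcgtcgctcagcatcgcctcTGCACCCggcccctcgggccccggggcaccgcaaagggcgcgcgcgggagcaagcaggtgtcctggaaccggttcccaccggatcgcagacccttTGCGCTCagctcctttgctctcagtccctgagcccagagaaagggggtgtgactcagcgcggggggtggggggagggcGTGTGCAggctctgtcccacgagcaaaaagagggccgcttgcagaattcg
*Mt2* held 3 matches and *Mt1* 1 in this window, where all 27025 promoters held at least 1 in 21.3% of cases and 3 or more in 0.773%. The counts depend on the annotated start, and elements downstream of it or further upstream are not counted, so they are not the number of elements of either gene. Of the promoters of genes tested in rectum, 29.7% held at least 1 and 1.18% held 3 or more.

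**Figure D5:**
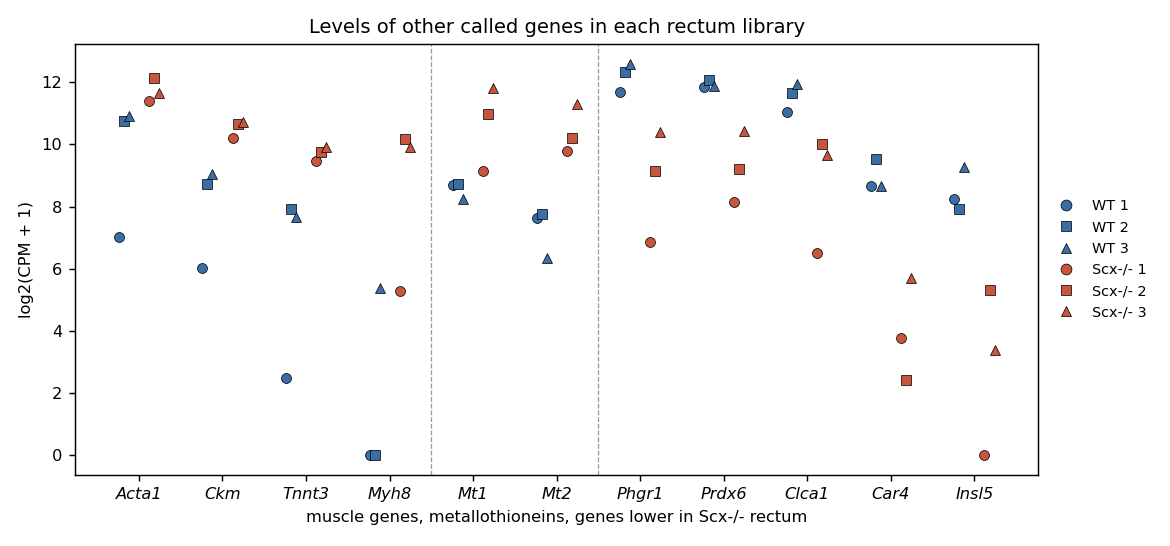
log2(CPM + 1) of 11 further called genes in each rectum library, with wild type in blue, *Scx*-/- in red and the shape giving the replicate number; dashed lines part muscle genes, metallothioneins and genes lower in *Scx*-/-. Wild-type replicate 1 is the lowest library for *Acta1*, *Ckm* and *Tnnt3*, and for the 5 genes at the right the 3 *Scx*-/- libraries lie below the 3 wild-type libraries.

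Of the 6 lower genes, 4 are known from colonic or enteroendocrine epithelium or its mucus. *Phgr1*, an abundant gene of gut epithelium, was at 3283, 5111 and 6209 CPM in wild type and at 114, 563 and 1344 CPM in *Scx*-/- (log2 fold change -2.57 ± 0.46 SE, adjusted *p* = 1.33e-05), and its call held in every fit without 1 library and by DESeq2 (0.0194) but not with filterByExpr (0.059). *Car4*, a carbonic anhydrase on the surface of colonocytes, was at 405, 746 and 402 CPM against 12.7, 4.33 and 51 CPM (-4.18 ± 0.93, adjusted *p* = 0.00281), with the call lost without wild-type replicate 2 (0.202) or *Scx*-/- replicate 2 (0.277). *Clca1*, a secreted component of goblet cell mucus, was at 2119.9, 3199 and 3898 CPM against 88.9, 1040.0 and 812 CPM (-1.97 ± 0.49, adjusted *p* = 0.0138). Its call held without *Scx*-/- replicate 1 (0.0132) or wild-type replicate 1 and was lost without any of the other 4 libraries (0.066 to 0.291), by DESeq2 (0.172) and with filterByExpr (0.248). *Insl5*, a peptide hormone of colonic enteroendocrine cells, was at 299, 241 and 623 CPM against 0, 39 and 9.55 CPM (-4.11 ± 1.08, adjusted *p* = 0.0339), and its call held in none of the 6 such fits (0.0669 to 0.521). The antioxidant enzyme gene *Prdx6* was at 3656, 4305 and 3798 CPM against 279.5, 589 and 1388 CPM (-2.17 ± 0.47, adjusted *p* = 0.00128), with the call lost without wild-type replicate 2 (0.0863) or *Scx*-/- replicate 2 (0.277) and with filterByExpr (0.0707). The groups did not overlap for any of these 5. *Hbb-bs*, a beta globin gene with a near-identical neighbour, had counts in wild-type replicate 2 alone (794 CPM), so its call rests on 1 library.

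Beyond those genes, the rectal mucosa showed few calls. Of 38 measured colonocyte genes, 1 fell (*Car4*) and none rose, of 20 goblet cell genes 1 fell (*Clca1*), and of 12 enteroendocrine genes 1 fell (*Insl5*), against 0.042% of all genes. When 1 library was left out, colonocyte calls ranged from 0 to 2, goblet cell calls from 0 to 1 and enteroendocrine calls stayed at 0, and no gene of the 3 lists was called without wild-type replicate 2 or *Scx*-/- replicate 2. The groups did not overlap, with *Scx*-/- lower, for 11 of the 38 colonocyte genes, against 2.23% of all genes. The median log2 fold change of colonocyte genes was -0.72 with all libraries and -0.16 without *Scx*-/- replicate 1 against 0.45 and 0.44 over all genes, and leaving out *Scx*-/- replicate 2 or 3 gave -0.98 and -1.03. The median of goblet cell genes was -0.72 with all libraries and -0.25, -1.20 and -0.99 without *Scx*-/- replicates 1, 2 and 3. *Lypd8*, a secreted protein that keeps bacteria off the colonic surface, was the most abundant member at 11404, 13013 and 11434 CPM in wild type and 318, 4411 and 9789 CPM in *Scx*-/- (-1.07 ± 1.27, adjusted *p* = 0.828). *Lypd8* was called lower without *Scx*-/- replicate 3 (-2.11, adjusted *p* = 0.026) and was at -0.52 without *Scx*-/- replicate 1 (adjusted *p* = 0.877). *Krt19*, a keratin of simple epithelia, was at 4120.2, 4462 and 6712 CPM against 1029, 3254 and 3356 CPM (-0.77 ± 0.41, adjusted *p* = 0.706). *Zg16*, a lectin of goblet cell mucus, was at 2589, 4149 and 7576 CPM against 0, 2574 and 3219 CPM (-0.98 ± 1.82, adjusted *p* = 0.916). Of 14 measured crypt genes and 24 proliferation genes none passed with all libraries. The crypt list took 0.0764% to 0.092% of counts in wild type and 0.0936% to 0.221% in *Scx*-/-.

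None of the listed genes of smooth muscle, connective tissue and nerve passed the test. In simulated counts a 4-fold change was called for 0 of 200 genes, so no call does not mean no change. Of 30 smooth muscle genes none was called, and their median log2 fold change was -0.43 against 0.45 over all genes. Without *Scx*-/- replicates 1, 2 and 3 the smooth muscle median was 0.04, -0.75 and -0.69, against 0.44, 0.23 and 0.13 over all genes. *Acta2*, the smooth muscle actin, was at 5596, 6422 and 5928 CPM in wild type and 419, 5143 and 4751 CPM in *Scx*-/- (-0.57 ± 0.40, adjusted *p* = 0.706), and *Myh11*, the smooth muscle myosin, at 3541, 2898 and 2552 CPM against 381, 2141 and 1869 CPM (-0.85 ± 0.45, adjusted *p* = 0.706). In each case *Scx*-/- replicate 1 was far below the rest. None of 36 fibroblast matrix genes, 20 basement membrane genes or 21 enteric nerve and glia genes was called. Of the 18 listed genes of the tendon programme, in which *Scx* is known to act, 14 were measured and none was called. *Col1a1*, the chain of fibrillar collagen that *Scx* is known to activate in tendon, was at 3821, 3403 and 4501 CPM in wild type and 10393, 3497 and 3041 CPM in *Scx*-/- (0.59 ± 0.39, adjusted *p* = 0.706; -0.01 without *Scx*-/- replicate 1). *Thbs4*, a matrix protein of tendon and muscle, was at 129, 421 and 281 CPM against 216, 221 and 137 CPM (adjusted *p* = 0.937). Of 36 genes of TGF-beta and BMP signalling, which lies upstream of *Scx* in tendon, none was called. That list took 0.247% to 0.304% of counts in wild type and 0.315% to 0.399% in *Scx*-/-. The enteric nerve and glia list went the other way, at 0.074% to 0.123% and 0.0508% to 0.0713%.

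Some calls rested on *Scx*-/- replicate 1. *Ltf*, the iron-binding lactoferrin of neutrophils and gland secretions, was at 0 CPM in wild type and 2134, 26 and 146 CPM in *Scx*-/- (adjusted *p* = 4.84e-10). *Cyp2f2*, a cytochrome P450 of airway epithelium, was at 4.6, 0 and 0 CPM against 1258, 43.3 and 31.8 CPM (adjusted *p* = 0.00012), and *1600014C10Rik* at 0 CPM against 1079.9, 4.33 and 31.8 CPM (adjusted *p* = 0.00021). Without that library each of the 3 had an adjusted *p* of 0.877. *Lcn2*, which encodes an antimicrobial lipocalin, and *2310057J18Rik* were at 1054 and 889 CPM in that library and at 0 in the other 5. *Olfm4*, a gene of crypt and gland epithelium, was at 1283 CPM there and at 0 in the other 5 (adjusted *p* = 0.706, and 3.79e-05 and 2.78e-05 without *Scx*-/- replicate 2 and 3).

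Among the remaining lists, changes were few. Of 14 measured urothelium genes 3 rose, against 0.399% of all genes, namely *Krt5*, *Sprr1a* and *Ppl*, which stratified epithelium also makes. The uroplakins *Upk3a* and *Upk1b*, which define bladder lining, were at 63.5 and 25.4 CPM in *Scx*-/- replicate 1 and at 0 in the other 5 libraries. Of 22 immediate early genes, which respond within minutes to handling and stimuli, none was called, although 7 were higher at an unadjusted *p* under 0.05 (3.62% of all genes were), and the list took 0.798% of counts in *Scx*-/- replicate 2 against 0.19% to 0.297% in the others. *Fos* was at 73.6, 168 and 0 CPM in wild type and 114, 749.6 and 293 CPM in *Scx*-/- (2.36 ± 0.86, adjusted *p* = 0.622). None of 46 respiratory chain genes, 46 ribosomal protein genes, 19 endothelial genes, 15 adipocyte genes, 13 heat shock genes, 18 clock genes, 22 secretory pathway genes or 17 genes of hindgut position was called. Without overlap, the ribosomal list took 1.71% to 1.98% of counts in wild type and 2.22% to 3.84% in *Scx*-/-, and the clock list 0.0325% to 0.0855% and 0.0962% to 0.118%. The plasma cell list (0.261% to 0.388% and 0.061% to 0.234%) and the hepatocyte list (0.0326% to 0.0502% and 0.00762% to 0.0245%) lay lower in *Scx*-/-. Without *Scx*-/- replicate 1, 1 adipocyte gene was called higher (*Scd1*, adjusted *p* = 0.01), and without *Scx*-/- replicate 2, 1 heat shock gene was called lower. Of the immune and blood lists, the calls were *Ly6d* among 8 B cell genes, *Ltf* among 21 myeloid genes, *Lcn2* among 21 defence genes and *Hbb-bs* among 8 erythroid genes, and none among 5 plasma cell or 5 T and NK cell genes. Of the pancreatic acinar, hepatocyte and small intestine lists, with 8, 6 and 14 measured genes, none was called, and no gene of the male accessory gland list had a count. The mitochondrial ribosomal RNAs took 3.06% to 5.43% of counts in wild type and 1.77% to 2.42% in *Scx*-/-, without overlap, and neither passed the test (*Rnr2*, adjusted *p* = 0.487, and *Rnr1*, adjusted *p* = 0.706). Without *Scx*-/- replicate 1, *Rnr2* was called lower (adjusted *p* = 0.0307). Their part in the results was not tested.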

How the data were processed

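Bulk RNA was measured in 6 rectum libraries, 3 per genotype, grouped by the sample labels. The deposited values are counts, whole numbers per gene symbol and not normalized, for which the authors aligned reads against mm10 (Bowtie2) and assigned them to genes (HTSeq). Versions, annotation, strand setting and any use of molecular identifiers were not given in the sources used here. The 3′-enriched libraries count ends of polyadenylated RNA, and overlapping or antisense genes cannot be told apart.

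CPM was computed on library totals (49764 to 314033 counts). The genotypes were compared with edgeR 4.0.16 in R 4.3.3 (TMM factors, glmQLFit with robust estimation, Benjamini-Hochberg adjustment over 14292 genes). SE is the fold change divided by the root of F. The interaction used 24 libraries and 9844 genes passing filterByExpr. The smallest exact two-sided permutation p for 3 libraries per group is 0.1, and genes therefore carry the model's adjusted p. The authors tested with DESeq2, and version 1.42.0 served here as an alternative. Figures and tables used Python 3.11.15, pandas 2.3.3 and matplotlib 3.10.9. Gene positions and promoters come from RefSeq on GRCm38.

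On simulated counts with the spread of these libraries, a 16-fold change was called for 74 of 200 genes and a 4-fold change for 0 of 200. Beside the 16-fold set, 1 of 12916 unchanged genes was called. The changed genes were drawn from the more abundant genes only. A list without a call is thus no evidence that its genes were unchanged. No 2 replicates agreed within sampling noise (chi-square over its degrees of freedom was 8.304 or more).

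The named genes are *Scx*, called genes in a list, the 15 most abundant called genes in each direction and the 4 most abundant members of a described list. Others, among them *Krt15*, *Trp63*, *Olfm4*, *Upk3a*, *Upk1b*, *Xist*, *Ddx3y* and called genes in no list that are below those 15, were chosen after their values were seen. The members and gene lists were chosen with earlier results of these data known, so lists are described by counts and medians and not tested. Alternatives were RLE factors, library totals, filterByExpr, a block for the replicate number, thinning to 49764 counts per library, DESeq2 and leaving out each library.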

Additional observations from a re-analysis of the deposited data

Results flagged for a closer look

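In 13 genes the genotype effect in rectum differed from the mean effect in bladder, intestine and stomach by an interaction test (edgeR, adjusted p under 0.05, 13 of 9844 genes). The values are fitted differences of log2 fold changes, and where all libraries of a group were at 0 they are not estimates of size. The differences were 10.49 for *Ly6d*, 12.17 for *Krt5*, 9.76 for *Krtdap*, 8.91 for *Psapl1*, 3.03 for *Psca* and 2.78 for *Gsta4*, genes that stratified or other lining epithelia express. In rectum, *Gsta4* was at 20.1 to 120.3 CPM in wild type and 373 to 533 CPM in *Scx*-/-, and *Psca* at 4.6 to 24.1 and 76.2 to 143 CPM, while stomach held 1653 to 2243 and 4710.3 to 9839 CPM over both genotypes.

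In 6 genes a lower fitted level in *Scx*-/- intestine entered the difference, while *Krt5*, *Krtdap* and *Psapl1* had at most 7.85 CPM in any intestine library. The difference was 4.47 for *Sfn*, an adaptor protein of epithelial cells, with 62.8 to 341 CPM in wild-type and 0 to 33.3 CPM in *Scx*-/- intestine, and a fitted effect of -4.92 there against 2.81 in rectum. It was 10.84 for *1600014C10Rik*, 4.43 for *Ckm*, 6.21 for *Scd1* and 5.89 for *Cyhr1*, each at 0 CPM in all 3 *Scx*-/- intestine libraries, with wild-type intestine reaching 152, 98.2, 39.3 and 234 CPM. It was 5.51 for *Rps6ka1*, where *Scx*-/- bladder was at 0 CPM and *Scx*-/- intestine at 0 to 18.2 CPM against 277 to 554 CPM in wild-type intestine. For *Gpt*, an aminotransferase of amino acid metabolism, it was 7.39, with 0 CPM in wild-type and 65 to 279.5 CPM in *Scx*-/- rectum and a fitted effect of 0.49 to 0.60 in the other 3 tissues. Of the 13 genes, *Gsta4*, *Psca*, *Sfn*, *Gpt*, *Scd1*, *Rps6ka1* and *Cyhr1* were not called in rectum alone. Wild-type intestine also held a library at 0 CPM for *Ckm* and for *Scd1*. The depth of the intestine libraries is not given here, and 0 CPM there may be a transcript that was not detected. The part of the intestine libraries in these differences was not tested.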

How the results depend on the processing

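Of the 63 called genes, 59 were still called with RLE factors, 59 with library totals, 50 with DESeq2, 45 with libraries thinned to 49764 counts and 42 of the 50 that passed filterByExpr, and no called gene changed direction under any alternative. The number called was 39 with the replicate number as a block and 37 to 62 when 1 library was left out, with 37 when *Scx*-/- replicate 2 and 41 when wild-type replicate 2 was missing. At the thresholds of the study 714 genes became 160 with filterByExpr, 235 with the block and 382 to 549 without 1 library, with 382 and 446 without *Scx*-/- replicates 2 and 3. The interaction called 8 genes with RLE factors and 8 to 13 without 1 rectum library, with 8 without wild-type replicate 3. Libraries of the other tissues were not left out. No pairing by replicate number was seen, as correlations of same-numbered and other deviations lay between -0.032 and 0.022, and the block is given for completeness. With replicates this noisy, the correlations cannot exclude that same-numbered samples were handled together. *Col1a1* and *Tagln*, which were not called, turned to -0.014 and 0.11 (log2) without *Scx*-/- replicate 1, in ranges of -0.014 to 0.81 and -0.76 to 0.11 over the fits without 1 library. The median log2 fold change of all genes was 0.45, and it fell by 0.11 with library totals, by 0.08 with RLE factors, by 0.20 with DESeq2 and by 0.37 with filterByExpr, and was 1.41 without wild-type replicate 1. *Scx* had no count and no alternative could give it a value. Of the called genes, 25 held in all 6 fits without 1 library, 11 in 5 and 17 in 2 or fewer. The cause of these changes was not tested. Genes under 8.56 CPM over the wild-type group cannot be told from absent at this depth.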
